A study of Homo sapiens with 12 samples.

Results

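Acetylated enhancers found in SW620 cells alone are the subject here: 5333 regions of histone H3 lysine 27 acetylation (H3K27ac) among the 22236 such regions of this line. They were selected on 3 deposited region lists. A member is an SW620 H3K27ac region that overlaps, by 1 bp or more, neither an H3K27ac region of SW480 nor a region of the promoter mark H3K4me3 in SW620. Of the 22236 regions, 8919 were free of H3K4me3, and 5333 of these were also free of SW480 acetylation. Over the whole SW620 list, 26.8% of regions were called in SW620 alone, and this share and the absence of both marks follow from the rule and are given as a description.

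The series compared SW620, labelled as a colorectal adenocarcinoma of Dukes' type C, with SW480, labelled as Dukes' type B. SW480 is known as a line from a primary colon tumour and SW620 as a line from a later lymph node metastasis of the same donor. Both were untreated and grown in DMEM with serum, and each antibody (against H3K4me2, H3K4me3, H3K36me3, H3K27ac and the transcription factor FOXA2) was used once per line. Each group is therefore 1 library. No test between the lines can be made, and the intervals in brackets are exact (Clopper-Pearson) 95% binomial intervals that cover counting error only. Neighbouring regions are not independent of each other either. The labelled tissue was not checked against marker genes, since no gene annotation of the build (hg19) was used here.

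Enhancers are stretches of DNA, often far from the genes they act on, that transcription factors bind to raise the output of promoters. H3K27ac marks enhancers and promoters in their active state. H3K4me2 is laid down at both as well and can be present at enhancers that are bound but not acetylated, H3K4me3 is concentrated at promoters, and H3K36me3 covers the bodies of transcribed genes. FOXA2 is a forkhead protein of foregut endoderm and liver that can bind its sites in closed chromatin, a property known as pioneer activity.

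Most members were free of any called region in SW480. In 71.5% of them (3813 regions, 70.3 to 72.7) none of the 5 SW480 lists had an overlapping region, against 18.4% of the whole SW620 H3K27ac list. One of those lists, SW480 H3K27ac, is absent from every member by the rule, so this difference follows in part from the choice of members. H3K4me2 did not enter the rule and lay on most members in SW620. There, 3818 members, or 71.6% (70.4 to 72.8), overlapped H3K4me2, and 778, or 14.6% (13.7 to 15.6), did so in SW480. The members with SW620 H3K4me2 were covered by it over a median of 75.7% of their length, with quartiles of 56.7% and 96.0%. Across the whole SW620 H3K27ac list, which is mostly promoters, 91.3% of regions overlapped SW620 H3K4me2 and 75.5% overlapped SW480 H3K4me2. Members thus carried H3K4me2 of their own line less often than the list did, and that of SW480 far less often. The rule leaves out regions on SW620 H3K4me3 or SW480 acetylation, so these differences too follow in part from the choice of members.

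Sorted by both H3K4me2 lists, the members fell into 3 sizeable groups. The largest, 3087 members or 57.9% (56.5 to 59.2), had H3K4me2 in SW620 alone, against 16.9% of the whole list. A second group of 1468 members, or 27.5% (26.3 to 28.7), had H3K4me2 in neither line, against 7.52% of the whole list. Another group of 731 members, or 13.7% (12.8 to 14.7), had H3K4me2 in both lines, against 74.4% of the whole list, and so carried this mark in SW480 without the acetylation. The remaining 47, or 0.881%, had it in SW480 alone, against 1.14% of the whole list. The members are themselves 3087 of the 3765 regions of the list with H3K4me2 in SW620 alone. Differences of the groups from the whole list follow in part from the rule. Of the 1515 members without SW620 H3K4me2, 186 had a region of it within 1 kb.

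The opposite class, 4560 acetylated enhancers found in SW480 alone and chosen by the mirror rule, was less one-sided. H3K4me2 of the line with the acetylation lay on a nearly equal share, 71.9% (70.6 to 73.2). H3K4me2 of the line without the acetylation lay on 14.6% of the SW620-only enhancers, as given above, and on 28.4% (27.1 to 29.8) of the SW480-only ones. When the SW480-only class was weighted to the width classes of the SW620-only one, this second value was 28.1% ± 0.69 (SE from counting). The SW620 H3K4me2 library was the deeper one, with 23671100 tags and 35114 regions, against 20958795 tags and 31768 regions in SW480. The H3K27ac libraries, which set both classes, had 27.5% of tags in regions in SW620 and 58.5% in SW480. The part of either in the difference was not tested. Enhancers acetylated in both lines, 3586 regions of the SW620 list, overlapped H3K4me2 in 89.5% (88.5 to 90.5) of cases in SW620 and 85.8% (84.6 to 86.9) in SW480.

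**Figure D1:**
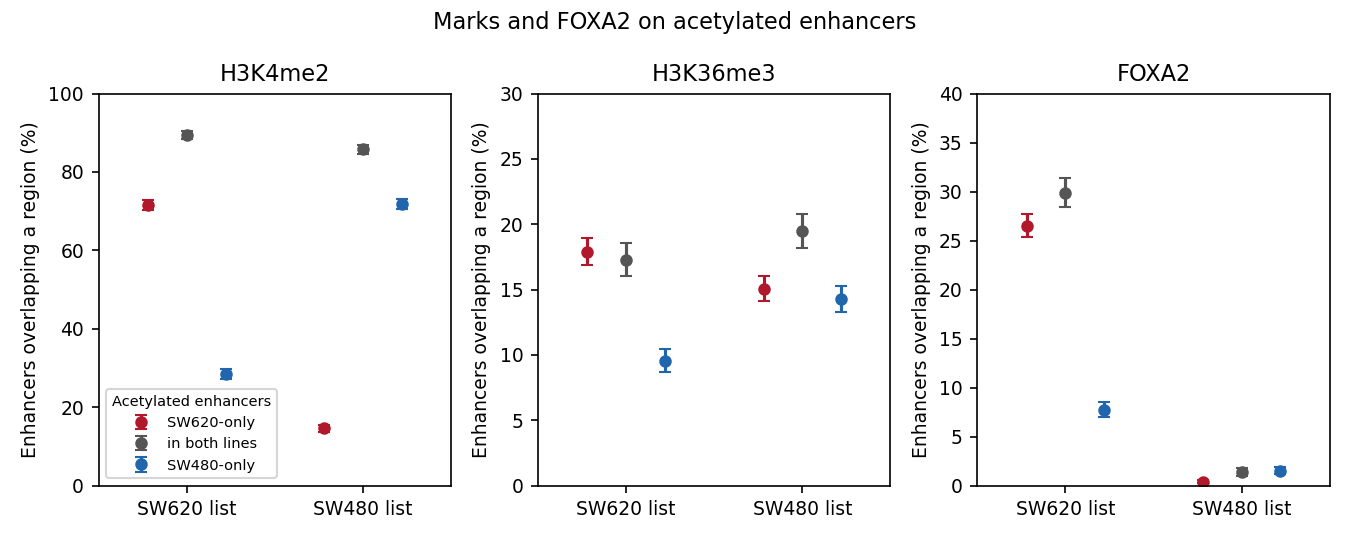
Share of acetylated enhancers (y axis, percent) that overlap H3K4me2, H3K36me3 or FOXA2 regions in the SW620 list and in the SW480 list, for the 5333 SW620-only, 3586 both-line and 4560 SW480-only enhancers; points are shares and bars exact 95% binomial intervals. H3K4me2 is on 71.6% of the SW620-only enhancers in SW620 and 14.6% in SW480, and FOXA2 on 26.5% in SW620 and 0.413% in SW480.

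Promoter marking at the members was rare in SW480 too. H3K4me3 of SW480 lay on 36 members, or 0.675% (0.473 to 0.933), against 59.2% of the whole SW620 H3K27ac list, and 34 of these 36 carried H3K4me2 in SW620. The rule leaves out regions on SW620 H3K4me3, and 93.1% of all SW620 H3K4me3 regions were called in SW480 as well. The low share in the members thus follows in part from their choice. Among the enhancers acetylated in both lines, 426 or 11.9% (10.8 to 13.0) overlapped SW480 H3K4me3.

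Members were narrow. Their median width was 1515 bp (1507 to 1527), with quartiles of 1001 and 2191 bp, and together they covered 9.75 Mb. The narrowest width the histone lists hold, 1001 bp, which is close to the caller's region size of 1000 bp, was that of 1763 members, or 33.1% (31.8 to 34.3). Enhancers acetylated in both lines had a median of 2294 bp (2199 to 2323) in the SW620 list, and 15.0% (13.8 to 16.2) were 1001 bp wide. SW480-only enhancers had a median of 1789 bp (1777 to 1805). The rule and its mirror leave out a region at 1 bp of overlap, which a wider region is more likely to have. Both-line enhancers, in turn, need an overlap with SW480 acetylation. The smaller widths of members and SW480-only enhancers can thus follow in part from their choice. The state of H3K4me2 went with width: 54.0% (51.4 to 56.6) of the members with H3K4me2 in neither line were 1001 bp wide, against 24.1% (22.6 to 25.6) of those with it in SW620 alone. The H3K27ac libraries differed in depth and enrichment, with 47867295 tags and 27.5% of them in regions in SW620, against 34224728 tags and 58.5% in SW480, and the part of this in the choice of narrow regions was not tested.

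The edge of the rule can be read from the members nearest to SW480 acetylation. The 3 named for the smallest gaps to it were chromosome 16 from 89631947 to 89633355 (2 bp), chromosome 7 from 397314 to 398314 (5 bp) and chromosome 9 from 116161581 to 116162841 (10 bp). Just outside the rule were regions on chromosome 3 from 195618699 to 195620731, chromosome 9 from 134713809 to 134714809 and chromosome 2 from 208880897 to 208881897, whose overlaps were 7, 8 and 9 bp. Such cases were a small part. The median gap from a member to the nearest SW480 H3K27ac region was 19.3 kb (18.0 to 20.5), and 269 members, or 5.04%, lay under 1 kb from one. Under 5 kb from one lay 1234 members, or 23.1% (22.0 to 24.3).

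At the far end, 847 members, or 15.9% (14.9 to 16.9), lay 100 kb or more from SW480 acetylation, against 4.63% of the whole list. In these, SW620 FOXA2 peaks were found in 37.5% (34.3 to 40.9), SW620 H3K4me2 in 69.2% (66.0 to 72.3) and SW620 H3K36me3 in 1.77% (0.994 to 2.90). The matching shares of these marks in equally remote regions of the whole list were not taken, so they cannot be called particular to the members. There were also 482 members, 9.04% (8.28 to 9.84), with no region of any of the 4 SW480 histone lists within 100 kb, against 2.44% of the whole list. Both differences follow in part from the rule, which leaves out regions on SW480 acetylation. Whether such stretches are equally represented in the DNA of both lines was not tested.

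FOXA2 of SW620 was found on about 1 in 4 members, and FOXA2 of SW480 on almost none. SW620 FOXA2 peaks lay in 1414 members, or 26.5% (25.3 to 27.7), and SW480 FOXA2 peaks in 22, or 0.413% (0.259 to 0.624). Over the whole SW620 H3K27ac list the shares were 17.6% and 0.72%. Seen from the factor's side, 1442 of the 12372 SW620 FOXA2 peaks, or 11.7% (11.1 to 12.2), overlapped a member, and 10 of the 1442 overlapped an SW480 FOXA2 peak. Of the 22 members with an SW480 peak, 12 also held an SW620 peak. The FOXA2 library of SW620 had 2.25% of its 18036456 tags in peaks, against 0.59% of 19473583 tags, in 5207 peaks, in SW480, and the part of this in the small SW480 share was not tested.

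Most members with FOXA2 had a single peak. There were 1376 with 1 peak, 35 with 2 and 3 with 3 peaks. The peaks sat in the middle of the acetylated region. Of 1365 peak centres inside members, 665, or 48.7% (46.0 to 51.4), lay in the middle 20% of the region's length, while 113, or 8.28% (6.87 to 9.87), lay in the outermost 10% at either end. Their median distance from the region's centre was 193 bp. The authors ran the caller with its option to centre histone regions on the likeliest nucleosome-free stretch, per the file headers, so the middle of a region is not a neutral position. The middle 20% held close shares in the other classes, 50.6% (47.7 to 53.5) in both-line enhancers and 50.1% (44.7 to 55.6) in SW480-only enhancers. The outermost 10% at either end held fewer peaks in both-line enhancers, 5.16% (3.95 to 6.60), an interval that does not meet that of the members, and 5.97% (3.68 to 9.07) in SW480-only enhancers. In bp, the median distance from the centre was 314.5 in the wider both-line enhancers and 190 in SW480-only enhancers.

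**Figure D2:**
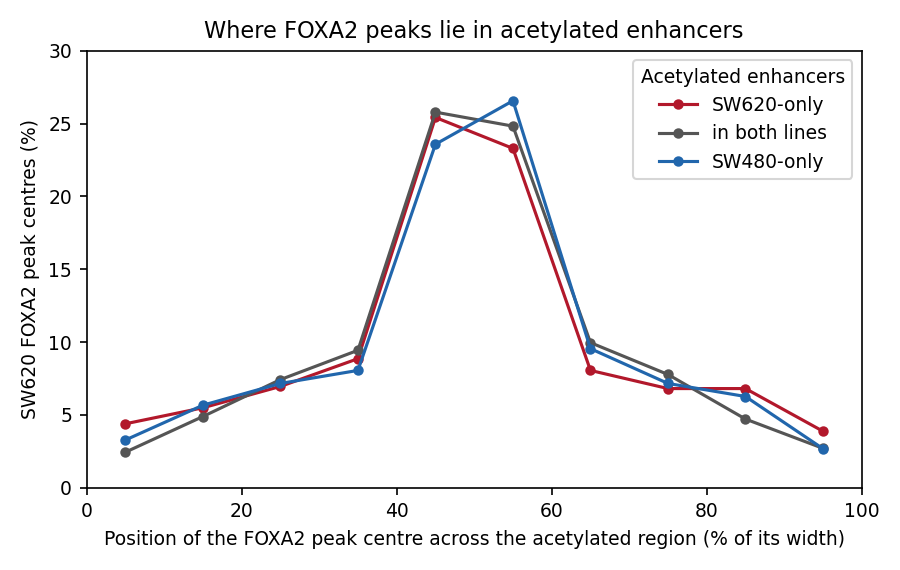
Position of SW620 FOXA2 peak centres across acetylated enhancers (x axis, percent of the region's width) and the share of peak centres in each 10% step (y axis, percent), for SW620-only (1365 centres), both-line (1144) and SW480-only (335) enhancers. In all 3 classes the 2 middle steps hold the largest shares, 25.4% and 23.3% in SW620-only enhancers.

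FOXA2 was more frequent where H3K4me2 was present. It lay in 32.3% (30.6 to 33.9) of members with H3K4me2 in SW620 alone, 27.9% (24.7 to 31.3) of those with H3K4me2 in both lines and 14.1% (12.4 to 16.0) of those with H3K4me2 in neither. Since width differs between these groups, the shares were also taken within widths. At 1001 bp they were 22.1% (19.1 to 25.2), 17.9% (12.9 to 23.9) and 8.83% (6.95 to 11.0) in the same order. At 2000 bp and above they were 42.6% (39.8 to 45.4), 37.0% (31.3 to 43.1) and 30.6% (24.1 to 37.8). Members without H3K4me2 in either line were the lowest of the 3 groups at both widths, with intervals that met those of the group with H3K4me2 in both lines at 2000 bp and above.

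The comparison with enhancers acetylated in both lines depended on width. Taken as a whole, 26.5% of SW620-only and 29.9% (28.4 to 31.4) of both-line enhancers held an SW620 FOXA2 peak. Within each of 6 width classes the SW620-only value was the higher of the pair. In regions of 1001 bp it was 15.4% (13.7 to 17.1), against 11.4% (8.80 to 14.4) in both-line enhancers. From 1500 to under 2000 bp the values were 27.1% (24.5 to 29.8) and 19.9% (16.9 to 23.2), a pair whose intervals do not meet. From 2000 to under 3000 bp they were 34.2% (31.4 to 37.1) and 29.1% (26.3 to 32.1), and at 5000 bp and above 64.1% (54.0 to 73.3) and 61.1% (55.4 to 66.7). When the both-line class was weighted to the width classes of the members, its share was 21.6% ± 0.74 (SE from counting), against 26.5% ± 0.58 in the members. The order of the unweighted shares was thus the opposite of the order at equal width. These width classes were set after values were seen, and no replicate of either library is at hand to give the spread.

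**Figure D3:**
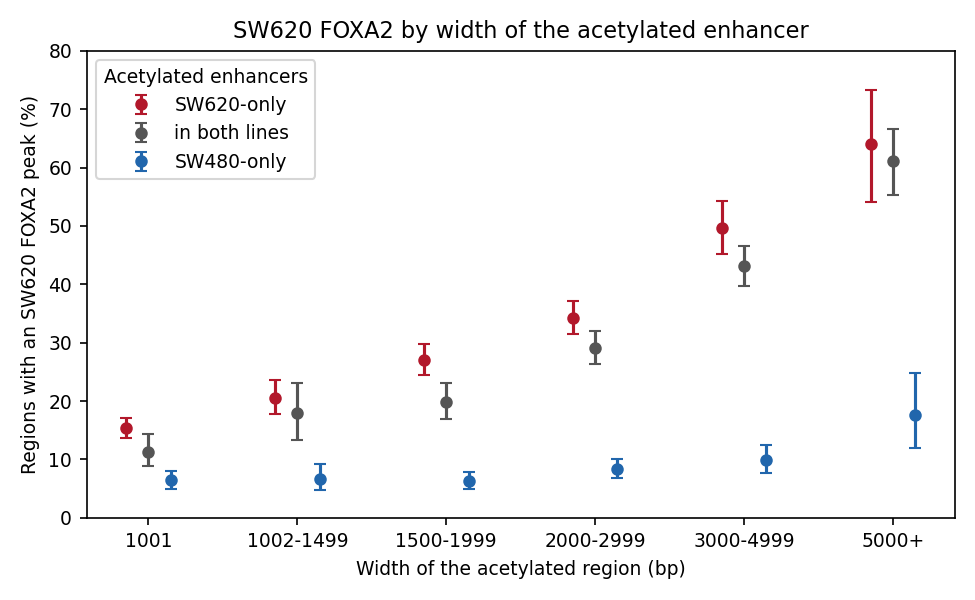
Share of acetylated enhancers with an SW620 FOXA2 peak (y axis, percent) by the width of the acetylated region (x axis, bp), for SW620-only, both-line and SW480-only enhancers; points are shares and bars exact 95% binomial intervals. SW620-only points run between 15.4% and 64.1% and lie above the both-line points in each width class, with overlapping bars in most, while SW480-only points run between 6.27% and 17.7%.

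SW480-only enhancers held SW620 FOXA2 peaks in 7.74% (6.98 to 8.56) of cases, or 7.36% ± 0.39 when weighted to the same widths. Here too H3K4me2 of SW620 divided them. FOXA2 was in 16.8% (14.7 to 19.1) of the 1161 with H3K4me2 in both lines and in 4.11% (3.30 to 5.04) of the 2118 with H3K4me2 in SW480 alone.

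Members lay far from promoters as marked by H3K4me3. The median distance from a member to the nearest SW620 H3K4me3 region was 33.3 kb (31.7 to 35.2), with quartiles of 10.9 and 88.2 kb. For both-line enhancers it was 24.1 kb (22.5 to 25.3), and for SW480-only enhancers, measured to SW480 H3K4me3, 27.4 kb (26.1 to 29.0). The nearest SW620 H3K4me3 region was called in SW480 as well for 4555 members, or 85.4% (84.4 to 86.3), while 93.1% of all SW620 H3K4me3 regions were. For 4025 members, 75.5% (74.3 to 76.6), that region was also acetylated in both lines, near the 76.6% of all SW620 H3K4me3 regions. The share with H3K4me3 in both lines was thus below that of the list, and the nearest promoter need not be the one an enhancer acts on. For both-line enhancers the 2 values were 89.8% (88.8 to 90.8) and 81.8% (80.5 to 83.0).

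H3K4me3 regions of SW620 alone had members nearby more often than H3K4me3 regions called in both lines. A member lay within 20 kb of 273 of the 1118 SW620-only H3K4me3 regions, or 24.4% (21.93 to 27.05), and of 1858 of the 15197 regions in both lines, or 12.2% (11.7 to 12.8). Within 50 kb the shares were 37.3% (34.5 to 40.2) and 24.0% (23.3 to 24.7). Members lack SW480 acetylation by the rule, so these differences can follow in part from their choice. The matching shares for the other enhancer classes were not taken.

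Among the members, FOXA2 was most frequent far from H3K4me3 and H3K36me3 close to it. SW620 FOXA2 lay in 18.2% (15.4 to 21.2) of the 727 members under 5 kb from H3K4me3, 22.4% (20.1 to 24.8) of the 1233 at 5 to 20 kb, 27.3% (25.5 to 29.2) of the 2215 at 20 to 100 kb and 34.6% (31.9 to 37.4) of the 1158 at 100 kb or more. Median widths in the 4 distance classes were 1301, 1509, 1529 and 1529 bp. Among members of 1001 bp alone the FOXA2 shares were 10.8%, 9.63%, 15.0% and 26.7%, and among those of 2000 bp and above 33.3%, 38.1%, 39.8% and 47.2%. H3K4me2 of SW620 varied little over the same classes, between 75.5% nearest to H3K4me3 and 69.3% farthest from it. H3K4me2 of SW480 lay on 20.8% of the nearest and 11.5% of the farthest members. The rise of SW620 FOXA2 with distance was not particular to the members. In both-line enhancers it lay in 22.4% under 5 kb and 39.4% at 100 kb or more. In SW480-only enhancers, by distance to SW480 H3K4me3, the values were 3.70% and 10.3%.

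H3K36me3, the mark of transcribed gene bodies, lay on 955 members in SW620, or 17.9% (16.9 to 19.0), and on 804 of the same positions in SW480, or 15.1% (14.1 to 16.1). The whole SW620 H3K27ac list had 14.5% and 15.2%. The members' own-line share was thus above that of the list, and their SW480 share was near it. Differences from the list can follow in part from the rule, which leaves out regions on SW620 H3K4me3 or SW480 acetylation. Both-line enhancers had the SW620 mark in 17.3% (16.1 to 18.6) of cases, an interval that meets that of the members. Their share with the SW480 mark was higher than that of the members, at 19.5% (18.2 to 20.8). H3K36me3 in SW620 alone was found on 355 members, or 6.66% (6.002 to 7.359), against 4.61% of the whole list. H3K36me3 in SW480 alone was found on 204, or 3.83% (3.33 to 4.38), against 5.28%, and the mark of both lines on 600, or 11.3% (10.4 to 12.1), against 9.93%. One-line H3K36me3 was thus more often that of SW620 in the members and slightly more often that of SW480 over the whole list. In SW480-only enhancers the numbers were 78 in SW620 alone and 293 in SW480 alone. In SW620 it lay on 31.1% (27.7 to 34.6) of members under 5 kb from H3K4me3 and on 3.45% (2.48 to 4.67) of those at 100 kb or more. In SW480 the matching values were 25.6% (22.4 to 28.9) and 2.16% (1.40 to 3.17). The other classes were alike in this. SW620 H3K36me3 lay on 24.3% and 1.62% of both-line enhancers at these distances. SW480 H3K36me3 lay on 21.7% and 4.56% of SW480-only enhancers, by distance to SW480 H3K4me3.

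**Figure D4:**
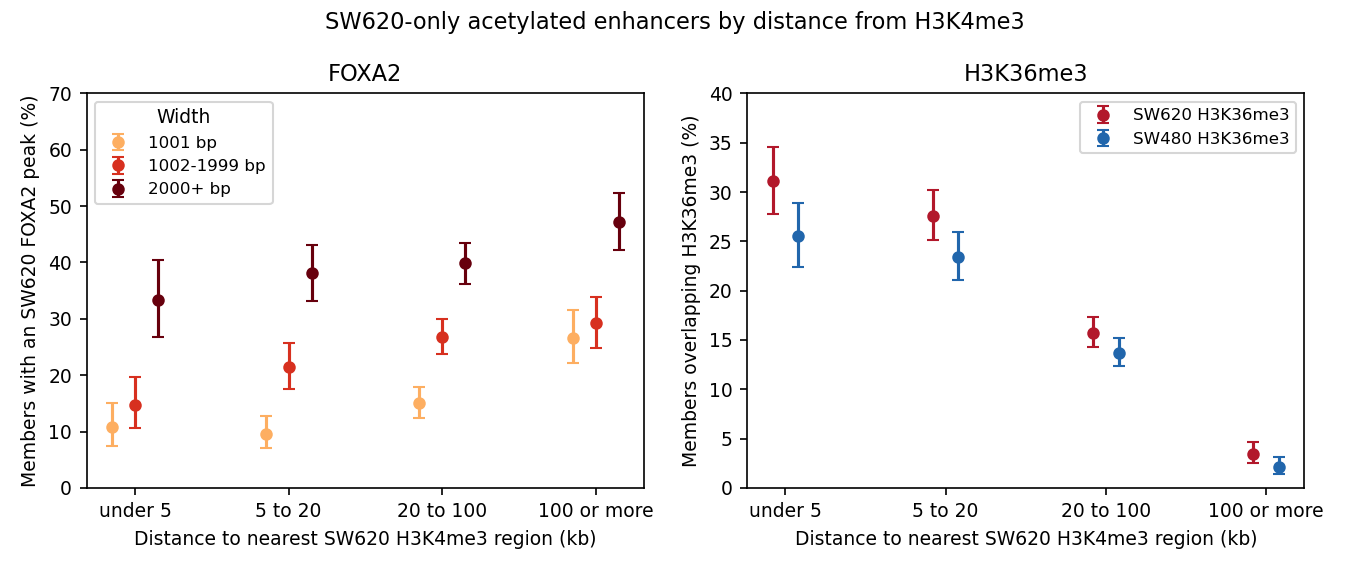
Members with an SW620 FOXA2 peak, by width (left, percent), and members overlapping H3K36me3 in SW620 or SW480 (right, percent), by distance to the nearest SW620 H3K4me3 region (x axis, kb); points are shares and bars exact 95% binomial intervals. FOXA2 is highest at 100 kb or more in each width class (26.7% at 1001 bp), and H3K36me3 is lowest there (3.45% in SW620).

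More than 1 in 3 members had another member close by. When members at most 12500 bp apart were joined, 3379 stood alone and 1954, or 36.6%, formed 779 clusters of 2 or more. Clusters of 5 or more numbered 36 and held 232 members. A both-line acetylated enhancer lay within 12500 bp of 913 members, or 17.1% (16.1 to 18.2), and an acetylated region with H3K4me3 within the same distance of 1446, or 27.1% (25.9 to 28.3). None of these neighbours was present for 2106 members, or 39.5% (38.2 to 40.8). Within 50 kb, 1105 members, or 20.7% (19.6 to 21.8), had an SW480-only enhancer, so that either line had acetylation of its own at different sites of the same neighbourhood. The matching shares for the whole list and the other classes were not taken. Whether members lie closer together than other acetylated regions was therefore not tested. Members in clusters of 5 or more had SW480 H3K4me2 in 6.47% (3.66 to 10.4) of cases, against 16.3% (15.1 to 17.6) of those that stood alone, and FOXA2 in 21.6% (16.4 to 27.4) against 27.8% (26.3 to 29.3). The FOXA2 intervals meet. Median widths of the clustered and lone members were 1838 and 1441 bp. The 232 members come from only 36 clusters and are not independent, so their intervals are too narrow.

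The largest cluster had 16 members over 87.6 kb of chromosome 3, from 78882182 to 78969763 in hg19. It held 42.2 kb of acetylated sequence, 14 H3K4me2 regions and 3 FOXA2 peaks in SW620, no H3K4me3 or H3K36me3 region in SW620, and no region of any list in SW480. The second had 15 members over 75.3 kb of chromosome 12, from 92449596 to 92524863, with 5 FOXA2 peaks, 14 H3K4me2 regions and 3 H3K36me3 regions in SW620 and likewise no region in SW480. A further cluster of 7 members lay on the same chromosome from 92263637 to 92286076, with 3 FOXA2 peaks in SW620.

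Of the 10 clusters with most members, which hold 95 members, 6 spans had no histone region in SW480 and all 10 were without SW480 FOXA2. Clusters were built from members, which lack SW480 acetylation by the rule, so spans empty in SW480 follow in part from that choice. SW480 FOXA2 was rare throughout, on 0.72% of the whole SW620 H3K27ac list. SW620 FOXA2 peaks numbered 27 in the 10 spans, and 2 spans had none: chromosome 10 from 119772512 to 119803490 and chromosome 2 from 127807209 to 127846622, with 8 members each. On chromosome 1, from 56971775 to 57039525, a cluster of 10 members held 10 H3K36me3 regions in SW620 and none in SW480. On chromosome 4, from 153870473 to 153945060, the order was the opposite, with 4 H3K36me3 regions in SW620 and 7 in SW480 around 7 members. The clusters on chromosome 6, from 129957260 to 130018021, with 9 members, and on chromosome 2 were interleaved with 1 and 2 SW480 H3K27ac regions. The other 2 lay on chromosome 17 from 59628473 to 59657991, with 8 members, and chromosome 5 from 92257361 to 92282513, with 7 members. They had 2 and 4 FOXA2 peaks in SW620 and no histone region in SW480.

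**Figure D5:**
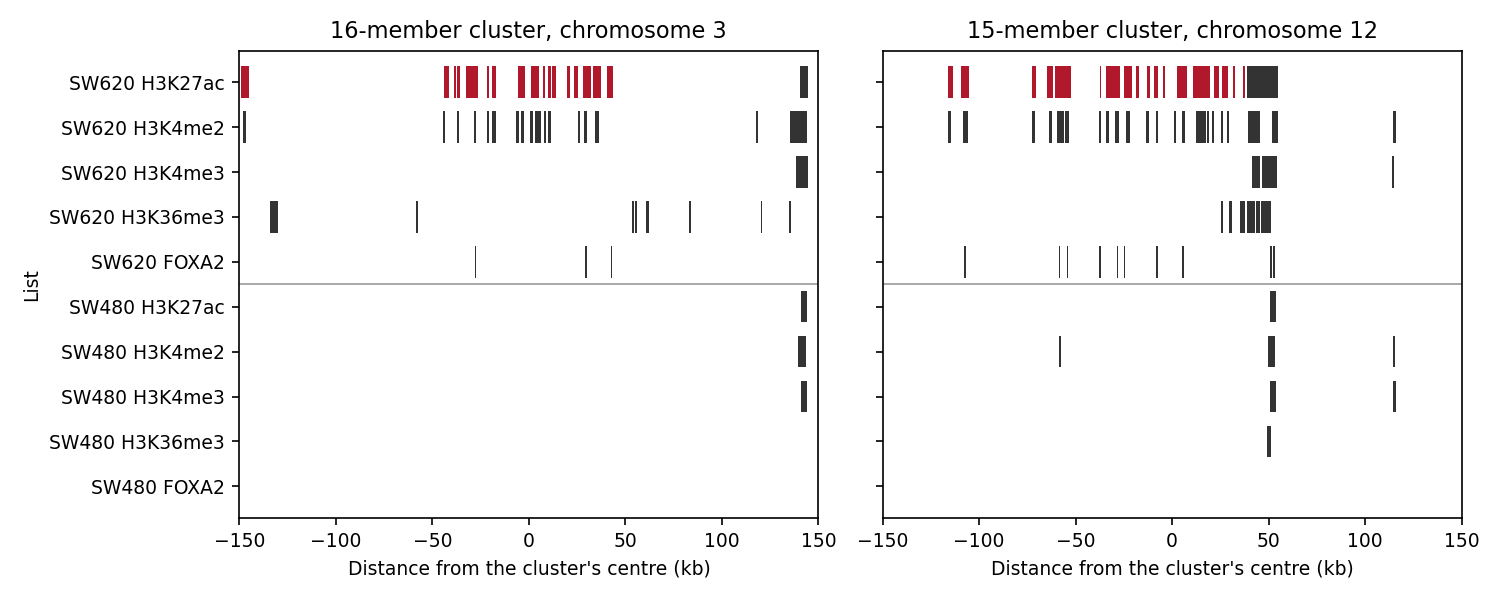
Regions of the 10 lists within 150 kb of the centre of the 2 largest clusters (x axis, kb; regions under 0.8 kb are drawn 0.8 kb wide), SW620 lists above and SW480 lists below the grey line, with members in red and all other regions in dark grey. Both cluster spans hold many SW620 H3K27ac and H3K4me2 regions and are empty in SW480, whose regions appear at their flanks.

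The 10 widest members were between 9.08 and 16.3 kb wide. All 10 overlapped SW620 H3K4me2, none overlapped SW480 H3K4me2, and 8 held an SW620 FOXA2 peak. Among all members of 5000 bp and above the shares were 94.2%, 16.5% and 64.1% in the same order. The widest lay on chromosome 12 from 76095057 to 76111367, 48.2 kb from the nearest SW480 acetylation, with 1 H3K4me2 region and 1 FOXA2 peak in SW620. Another pair among the 10 were its neighbours, at 76048562 to 76063694 and, overlapping it, at 76110996 to 76121948. The most remote was on chromosome 16 from 52525041 to 52534897, 553 kb from SW480 acetylation, with 2 FOXA2 peaks, 3 H3K4me2 regions and 1 H3K36me3 region in SW620. Not all were remote: the one on chromosome 15 from 81127074 to 81139954 lay 0.633 kb from an SW480 H3K27ac region, with 4 H3K36me3 regions in SW620 and 2 in SW480. The one on chromosome 1 from 10739155 to 10750479 lay 2.55 kb from SW480 acetylation, with 4 H3K36me3 regions in either line. The member on chromosome 15 from 67033940 to 67044900 had 3 H3K36me3 regions in SW620 and none in SW480. Those on chromosome 6, from 20693407 to 20703701, and on chromosome 12, from 92497799 to 92506873, were the 2 without a FOXA2 peak.

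Median width was 1301 bp in members without a FOXA2 peak, 1855 bp in those with 1 and 3609 bp in the 35 with 2. There were 3 peaks each in members on chromosome 10 from 60720585 to 60727777 (7.19 kb wide), chromosome 10 from 72561137 to 72567661 (6.53 kb) and chromosome 4 from 74680462 to 74684966 (4.51 kb). The first was 394 kb from SW480 acetylation and 207 kb from SW620 H3K4me3, the second 6.54 and 6.66 kb. Of the 35 members with 2 peaks, the 7 widest are named, so their width of 6.74 to 13.2 kb was set by that choice. They include a member on chromosome 14 from 54633933 to 54647101, a second one on chromosome 10, from 60394606 to 60401492, and one on chromosome 5 from 92257361 to 92264095, which belongs to the cluster there. The rest were on chromosome 16 (the remote region above), chromosome 12 from 92426371 to 92434663, chromosome 22 from 44216008 to 44223202 and chromosome 21 from 42691657 to 42698513. All 10 members named here overlapped SW620 H3K4me2, 2 overlapped SW480 H3K4me2 and 1 overlapped SW620 H3K36me3, with no SW480 FOXA2, H3K4me3 or H3K36me3 region on any. Over all members the shares were 71.6%, 14.6% and 17.9%, and for the last 3 lists 0.413%, 0.675% and 15.1%.

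Members made up 59.8% (58.8 to 60.8) of the 8919 SW620 acetylated enhancers, and this share differed between chromosomes. It was highest on chromosome 4, with 71.1% (65.4 to 76.3), chromosome 13, with 69.1% (62.9 to 74.8), and chromosome 3, with 68.7% (64.5 to 72.7). The lowest were chromosome 19, with 45.8% (39.9 to 51.9), and chromosome 17, with 49.8% (45.6 to 54.0). Set against SW480-only enhancers, of which there was 1 for every 1.17 members genome-wide, chromosome 13 stood apart with 170 members and 74 SW480-only enhancers, a ratio of 2.30. Chromosome 20 had 135 and 184, a ratio of 0.734, and chromosome 19 had 127 and 162, a ratio of 0.784. DNA copy number of the chromosomes was not analysed here. The share of members with an SW620 FOXA2 peak ran from 15.8% (10.4 to 22.6) on chromosome 22 to 36.6% (30.9 to 42.6) on chromosome 10.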

How the data were processed

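ChIP-seq of 5 antibodies in 2 cell lines gave 10 region lists, 1 per library, and the 2 input libraries entered through the authors' calling. Per the file headers, the authors ran HOMER findPeaks with each line's own input as background. Histone marks had a region size of 1000 bp, at least 4-fold over input and a false discovery rate of 0.001, and FOXA2 in the factor style with at least 2-fold over input. Positions are on hg19, which the submitters' processing notes name, while aligner and HOMER version are not given here. Total tags per library lay between 12791745 and 47867295. The deposited score column holds 1 in every row, so no signal per region was used. The other deposited values used were start and end positions, in bp.

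Python 3.11.15 (pandas 2.3.3, numpy 2.4.6) was used for overlaps, which were checked against bedtools 2.31.1 and tested on simulated regions. Intervals came from scipy 1.17.1, those of medians from order statistics, and figures from matplotlib 3.10.9. Coordinates count from 1. Named regions were the 10 widest members, the 10 with most FOXA2 peaks (ties by width), the 10 clusters with most members (12500 bp joining) and the 3 nearest to either side of the rule. The members and these rules were chosen with earlier results of these data known. Width and distance classes were set after values were seen. Gene assignments, gene lists, sequences and motifs, which need an hg19 annotation or genome, were not analysed here. With 1 library per group no differential test was run. Alternatives covered the overlap rule, H3K4me3 nearby, list length, chromosomes, width, and the width and number of FOXA2 peaks.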

Additional observations from a re-analysis of the deposited data

How the results depend on the processing

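Of 48 values recomputed under alternatives, 33 stayed within the original interval (for the number of members, within 1.5 times) and 15 did not. Members at least as wide as the median SW620 H3K27ac region (2205 bp) numbered 1326, with a median width of 2878 bp. Both of these values follow from the cut on width. SW620 H3K4me2 lay on 89.3% of these wide members, SW480 H3K4me2 on 16.1% and SW620 FOXA2 on 44.0%. When regions covered by SW480 H3K27ac over under 50% of their length were also admitted, the values were 72.9% for SW620 H3K4me2, 19.5% for SW480 H3K4me2 and 1537 bp for the median width. SW480 H3K4me2 lay on 13.5% of members without H3K4me3 of either line within 1 kb, and on 15.7% when the SW480 H3K27ac list was limited to the length of the SW620 list. With regions within 1 kb counted, which cannot lower a share, the shares were 75.1% for SW620 H3K4me2, 18.8% for SW480 H3K4me2, 28.9% for SW620 FOXA2 and 21.7% for SW620 H3K36me3. With the first-listed 50% of FOXA2 peaks the share was 16.8%, which follows from fewer peaks. For the values that moved without such a reason given, the cause was not tested. Joining overlapping members, added after the data were seen, moved none of the 6 values. No paired analysis was possible because each group has 1 library. A region called in one line can lie just below the caller's threshold in the other, and no depth-matched calling was at hand.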

Other observations

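The place of members in the deposited SW620 H3K27ac list was looked at after the data were seen. Members stood late in the list: 84.4% (83.4 to 85.4) were in its second 50%, against 56.5% (54.8 to 58.1) of both-line enhancers. SW480-only enhancers stood equally late in the SW480 list, with 85.3% (84.3 to 86.3). The sources used here do not say what orders the lists. In 4 successive parts of the list, each with 25% of its regions, SW620 FOXA2 lay in 61.2% of 242 members, 46.1% of 590, 31.5% of 1478 and 17.5% of 3023, and SW620 H3K4me2 on 95.9%, 92.0%, 83.5% and 59.8%. Median widths in these parts were 4300, 2954, 2039 and 1001 bp.

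SW620 FOXA2 peaks within members also stood early in their own list. Of the 1442 peaks, 906, or 62.8% (60.3 to 65.3), were in its first 50%, as were 59.7% (56.8 to 62.5) of the 1173 in both-line enhancers and 52.8% (47.5 to 58.1) of the 356 in SW480-only enhancers.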
